A study of Homo sapiens with 6 samples.

Results

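The enzymes that write and remove methyl groups on lysine 20 of histone H4 (H4K20), and proteins that bind the methylated lysine, were followed in HEK293 cells in which the main H4K20 mono-methyltransferase, SET8, was targeted by an shRNA. The 8 genes are KMT5A (SETD8 on the array, the gene of SET8), KMT5B (SUV420H1), KMT5C (SUV420H2), PHF8, L3MBTL1 (L3MBTL on the array), L3MBTL2, L3MBTL3 and TP53BP1. All probe sets annotated to these symbols, or to another symbol of the same Entrez gene ID, were taken, which gave 22 of the 45033 probe sets on the array and 8 of its 23596 gene symbols. HEK293 is a line made from human embryonic kidney cells with adenovirus DNA.

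The 6 single-colour NimbleGen arrays fall into 3 groups of 2. Cells carried SET8 shRNA and received Wnt3a conditioned medium, or carried control shRNA and received Wnt3a conditioned medium, or carried control shRNA and received control conditioned medium. In every group transfection lasted about 40 hours and the medium was applied for 7 hours before RNA extraction. The study asked whether SET8 acts in the activation of Wnt target genes. Cells with SET8 shRNA in control medium are not analysed here, so an effect of the shRNA outside Wnt3a medium cannot be given. The labels do not state whether the 2 arrays of a group came from separate cultures. The design text also uses the word siRNA for the same reagents, and its sequence is not given in the sources used here.

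KMT5A places a single methyl group on H4K20 and is the main enzyme to do so in animals. Its protein is destroyed during S phase and returns before mitosis. KMT5B and KMT5C extend this mark to the dimethyl and trimethyl forms, the last of which marks pericentric heterochromatin. PHF8 is a demethylase that removes the mono-methyl mark, L3MBTL1 compacts chromatin by binding the lower methylation states, and TP53BP1 binds the dimethyl form near DNA breaks through its tandem Tudor domain.

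The most upstream RefSeq promoter of each of the 3 methyltransferase genes is shown because the results below turn on these writers of the mark. Sequences are from RefSeq on GRCh38.p14 and run from 250 bases before to 50 bases after the annotated start, 5′ to 3′ on the strand of the gene. KMT5A lies at chr12:123383882-123384181 on the plus strand, KMT5B at chr11:68213599-68213898 on the minus strand and KMT5C at chr19:55339626-55339925 on the plus strand. Capitals mark matches, on either strand, to the CCAAT box (CCAAT) and the GC box (GGGCGG).
KMT5A promoter: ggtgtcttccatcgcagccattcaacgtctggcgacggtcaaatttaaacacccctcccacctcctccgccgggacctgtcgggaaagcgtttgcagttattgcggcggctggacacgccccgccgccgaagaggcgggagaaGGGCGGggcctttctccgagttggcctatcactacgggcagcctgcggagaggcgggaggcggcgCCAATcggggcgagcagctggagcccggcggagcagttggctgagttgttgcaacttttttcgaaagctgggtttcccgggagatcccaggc
KMT5B promoter: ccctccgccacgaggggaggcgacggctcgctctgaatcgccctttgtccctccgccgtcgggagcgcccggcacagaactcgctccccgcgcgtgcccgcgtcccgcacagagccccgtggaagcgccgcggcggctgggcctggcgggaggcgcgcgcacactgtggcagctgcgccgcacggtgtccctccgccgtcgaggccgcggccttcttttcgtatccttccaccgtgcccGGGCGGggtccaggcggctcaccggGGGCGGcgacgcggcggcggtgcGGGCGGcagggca
KMT5C promoter: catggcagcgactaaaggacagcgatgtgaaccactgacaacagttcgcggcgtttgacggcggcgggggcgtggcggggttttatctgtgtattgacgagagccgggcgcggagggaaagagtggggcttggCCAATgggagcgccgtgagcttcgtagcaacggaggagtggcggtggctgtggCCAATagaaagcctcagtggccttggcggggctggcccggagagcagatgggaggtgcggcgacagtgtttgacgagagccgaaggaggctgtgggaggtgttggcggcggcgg

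In the window of KMT5A the CCAAT match starts 42 bases before the transcription start and the GC box 107 bases before it. The KMT5B window holds no CCAAT and 3 GC box matches, which start 11 bases before and 14 and 37 bases after the start, and the KMT5C window holds 2 CCAAT matches, starting 117 and 64 bases before the start, and no GC box. KMT5A has 2 such windows in all, KMT5B 3 and KMT5C 1, and the other window of KMT5A holds 1 E2F and 8 GC box matches. Of the 34943 promoter windows in the RefSeq table, 34.6% hold CCAAT and 44.9% hold the GC box, so both are common. The E2F motif TTTNNCGC, present in 6.85% of all windows, and the TCF motif CTTTGAT, present in 2.63%, are not in these 3 windows. All 8 genes had an entry, with 16 windows between them, and no TCF match was found in any of the 16. The motif letters may overlap each other, and a match describes the sequence only.

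Array medians lay between 7.63 and 7.79 log2 intensity, and a control set of random probes read 4.66 to 4.84. Replicate arrays correlated over all probe sets at 0.985 with SET8 shRNA, at 0.976 with control shRNA in Wnt3a medium and at 0.972 with control shRNA in control medium. More than 2-fold between replicates was seen for 1.86% of the tested probe sets with SET8 shRNA, for 8.98% with control shRNA in Wnt3a medium and for 6.87% with control shRNA in control medium. The HEK293 markers KRT8, KRT18, VIM, NEFM, NEFL and PAX2 all passed the filter given below, and the log2 of their summed signal spanned 15.80 to 15.83 with SET8 shRNA, 15.71 to 15.80 with control shRNA in Wnt3a medium and 15.83 to 15.85 with control shRNA in control medium. This sum is set mostly by the brightest markers. Single fold changes with SET8 shRNA in Wnt3a medium ran from -0.46 for NEFM to 0.64 for NEFL (limma, adjusted p = 0.749 and 0.647). PAX2 read 7.32 to 8.13 over the 6 arrays. Of 5 fibroblast markers 3 were tested. The sums over all 5, tested or not, were 12.13 to 12.26 with SET8 shRNA, 12.57 to 12.77 with control shRNA in Wnt3a medium and 12.47 to 12.55 with control shRNA in control medium. The fibroblast genes LUM and DCN did not pass the filter. Of 4 blood cell markers 2 were tested, CD68, a macrophage protein, and HBA1, a haemoglobin subunit. The sums over all 4, tested or not, were 9.54 to 9.71 with SET8 shRNA, 10.86 to 10.92 with control shRNA in Wnt3a medium and 10.51 to 10.99 with control shRNA in control medium. The log2 fold change with SET8 shRNA in Wnt3a medium was -1.07 for CD68 and -1.65 for HBA1 (limma, adjusted p = 0.299 and 0.272). The defining leukocyte gene PTPRC read 3.93 to 6.03 on its 4 probe sets, none of which passed the filter. The part of these other markers in the results below was not tested. In bulk RNA, fewer cells of a type and less RNA per cell cannot be told apart.

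**Figure D1:**
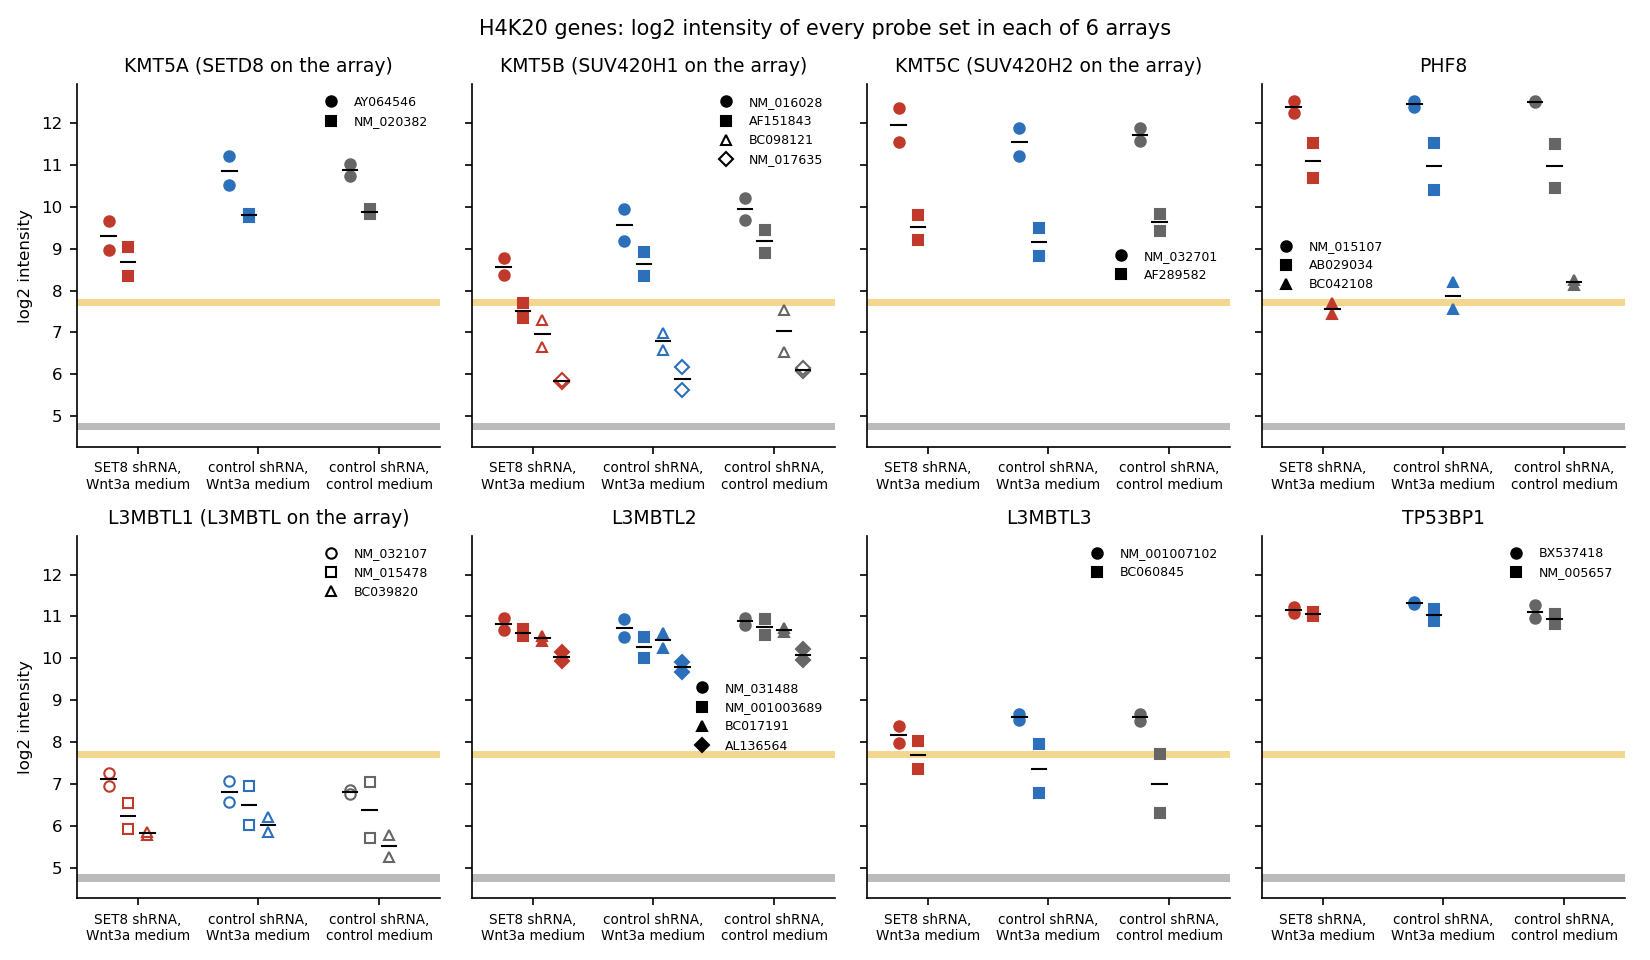
Log2 intensity (y axis) of each probe set of the 8 H4K20 genes in the 2 arrays of each group (x axis, SET8 shRNA in Wnt3a medium, control shRNA in Wnt3a medium, control shRNA in control medium). Each point is 1 array and each short line the mean of 2. Open symbols are probe sets that were not tested, the yellow band spans the array medians and the grey band the random control set. The KMT5A and the 2 tested KMT5B probe sets each lie lower with SET8 shRNA than in the 4 control shRNA arrays.

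Of the 22 probe sets, 17 from 7 genes passed the filter, which asked for a signal over the array's median on 2 or more of the 6 arrays. The 5 that did not were all 3 probe sets of L3MBTL1 and 2 of the 4 of KMT5B. Fold changes below come from a limma model over all 6 arrays, on the log2 scale. The adjusted p is the Benjamini-Hochberg value over all 23808 tested probe sets.

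With SET8 shRNA, compared with control shRNA in the same Wnt3a medium, the tested KMT5A and KMT5B probe sets had the most negative fold changes of the 17, from -1.56 to -0.99, and none passed the adjusted threshold. KMT5C had positive values of 0.35 and 0.41, and the fold changes of the demethylase and the readers spanned -0.43 to 0.35. An adjusted p under 0.05 was reached by 0 of the 17 probe sets in limma, where 0.0% of all 23808 reached it. At an unadjusted p under 0.05, 7.16% of all probe sets passed in either direction, 3.41% as lower and 3.76% as higher. Among the H4K20 genes 4 of 17 passed, all lower, and they were the 2 probe sets of KMT5A, which is the gene the shRNA targets, and the 2 tested ones of KMT5B. The median change of the 17 was 0.03, with 8 lower and 9 higher, against a median of 0.01 over all tested probe sets, of which 48.9% were lower. Both SET8 shRNA arrays lay below both control shRNA arrays in Wnt3a medium for 6 of 17 probe sets, where 17.0% of all did, and above them for 2 of 17, where 17.1% did. These 6, and the 4 with a low unadjusted p, include KMT5B AF151843. It passed the filter only through the control shRNA arrays, where it was high. So did PHF8 BC042108, which is among the 8 lower.

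KMT5A, the mono-methyltransferase, is measured by the probe sets AY064546 and NM_020382 on chromosome 12 (hg18, 122439555 to 122458998 and 122434656 to 122459853). On AY064546, log2 intensity was 8.97 and 9.65 in the SET8 shRNA arrays, against 11.20 and 10.53 with control shRNA in Wnt3a medium and 11.03 and 10.75 in control medium. Both SET8 shRNA arrays were below all 4 control shRNA arrays, with no overlap. On the linear scale these are intensities of 502 and 803 with SET8 shRNA, against 2355 and 1480 with control shRNA in Wnt3a medium. The change was -1.56 ± 0.34 (SE; 95% interval -2.35 to -0.76; limma, adjusted p = 0.236), which is a level of 34.0% of control (19.6% to 58.9%). Of all 23808 probe sets, 56 had a more negative fold change. The other probe set, NM_020382, read 9.03 and 8.34 with SET8 shRNA, against 9.83 and 9.76 with control shRNA in Wnt3a medium and 9.83 and 9.94 in control medium. Here too the 2 SET8 shRNA arrays lay below the 4 others. Its change was -1.11 ± 0.28 (SE; 95% interval -1.78 to -0.45; limma, adjusted p = 0.326), a level of 46.3% of control (29.2% to 73.4%). The array with the lower KMT5A value was replicate 1 on AY064546 and replicate 2 on NM_020382. Correlated over the 6 arrays, the 2 probe sets gave 0.79. RefSeq lists pseudogene copies of KMT5A, and their part in either signal was not tested. AY064546 passed the threshold in 2 models that were chosen after seeing the data (limma, adjusted p = 0.0287 with the replicate numbers crossed and 0.019 with a term for the control shRNA arrays), and in no other model run for this comparison.

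KMT5B, which makes the dimethyl and trimethyl marks with KMT5C, is measured by 4 probe sets on chromosome 11 (hg18). On NM_016028 (67689761 to 67737360) log2 intensity was 8.77 and 8.38 with SET8 shRNA, against 9.19 and 9.94 with control shRNA in Wnt3a medium and 9.68 and 10.20 in control medium. All SET8 shRNA values were below all control values. The change was -0.99 ± 0.34 (SE; 95% interval -1.78 to -0.20; limma, adjusted p = 0.553), a level of 50.3% of control. On AF151843 (67690368 to 67714117) the SET8 shRNA arrays read 7.69 and 7.34, against 8.36 and 8.91 with control shRNA in Wnt3a medium and 8.91 and 9.44 with control shRNA in control medium. The SET8 shRNA arrays again had the lowest values. The change was -1.12 ± 0.31 (SE; 95% interval -1.84 to -0.39; limma, adjusted p = 0.382), a level of 46.1%. This probe set lay above the array median only in the 4 control shRNA arrays, so it entered the test only through the groups where it was high. The other probe sets, BC098121 (67681623 to 67714124) and NM_017635 (67680082 to 67737360), read 6.54 to 7.52 and 5.62 to 6.17 over the 6 arrays and were not tested. Without the filter their fold changes were 0.18 and -0.06, with overlapping values in the 2 groups in Wnt3a medium. The gene models of these 2 end farther 3′ on the minus strand than those of the tested pair, which stop 9679 and 10286 bases short of the farthest end. The position of the probes within each model is not given, and whether it bears on the difference was not tested.

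KMT5C, the partner of KMT5B that is enriched at pericentric heterochromatin, had overlapping groups on both of its probe sets. On NM_032701 (chromosome 19, hg18, 60543075 to 60551301) log2 intensity was 11.54 and 12.37 with SET8 shRNA, against 11.88 and 11.20 with control shRNA in Wnt3a medium. The change was 0.41 ± 0.36 (SE; 95% interval -0.44 to 1.26; limma, adjusted p = 0.933). On AF289582 (60544795 to 60547541) values were 9.81 and 9.21 with SET8 shRNA, against 8.83 and 9.48 with control shRNA in Wnt3a medium, with a change of 0.35 ± 0.33 (SE; 95% interval -0.43 to 1.14).

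**Figure D2:**
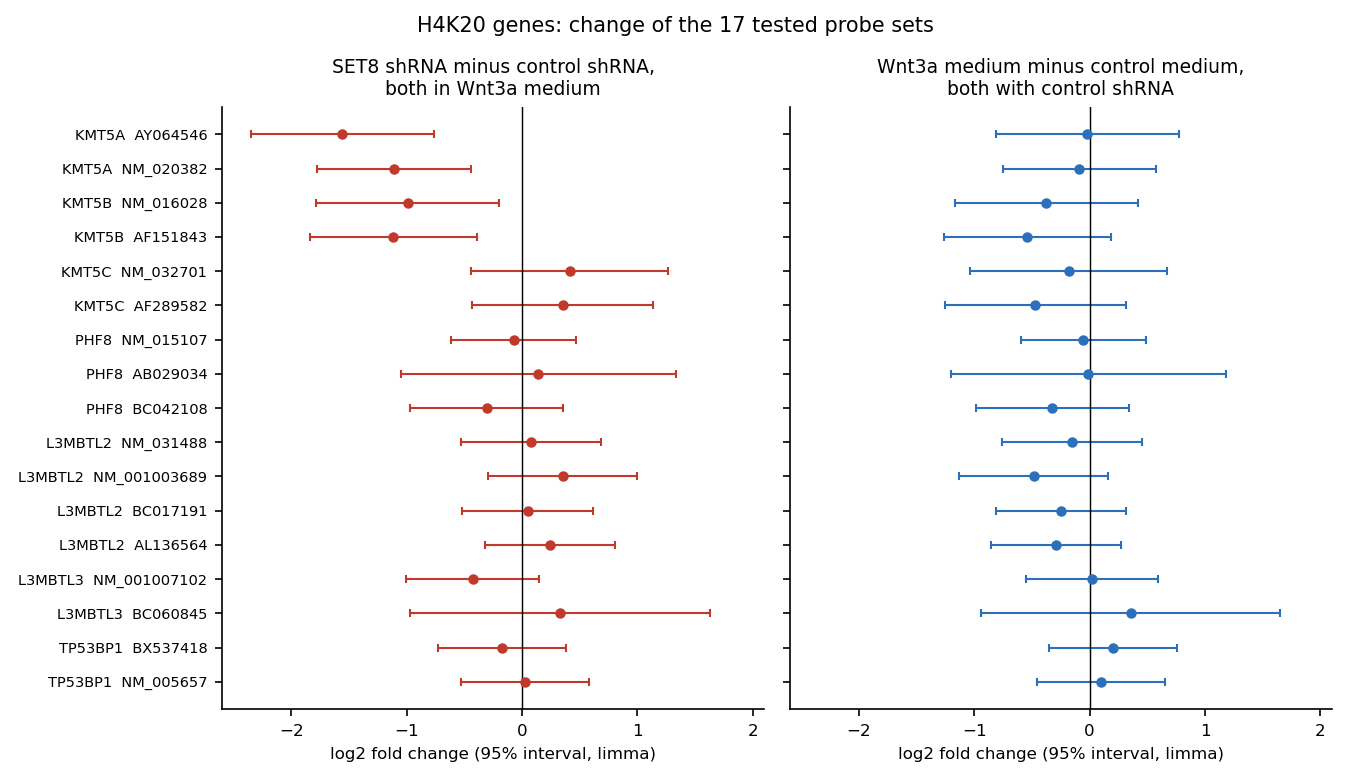
Log2 fold change (x axis) of the 17 tested probe sets (y axis) with 95% intervals from limma, for SET8 shRNA minus control shRNA, both in Wnt3a medium, and Wnt3a minus control medium, both with control shRNA. Points are probe sets and the vertical line is 0. The intervals of both KMT5A and both tested KMT5B probe sets lie below 0 in the SET8 comparison, where no probe set passed the adjusted threshold. KMT5B AF151843 passed the filter only through the control shRNA arrays, where it was high. The untested KMT5B probe sets are not shown.

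**Figure D3:**
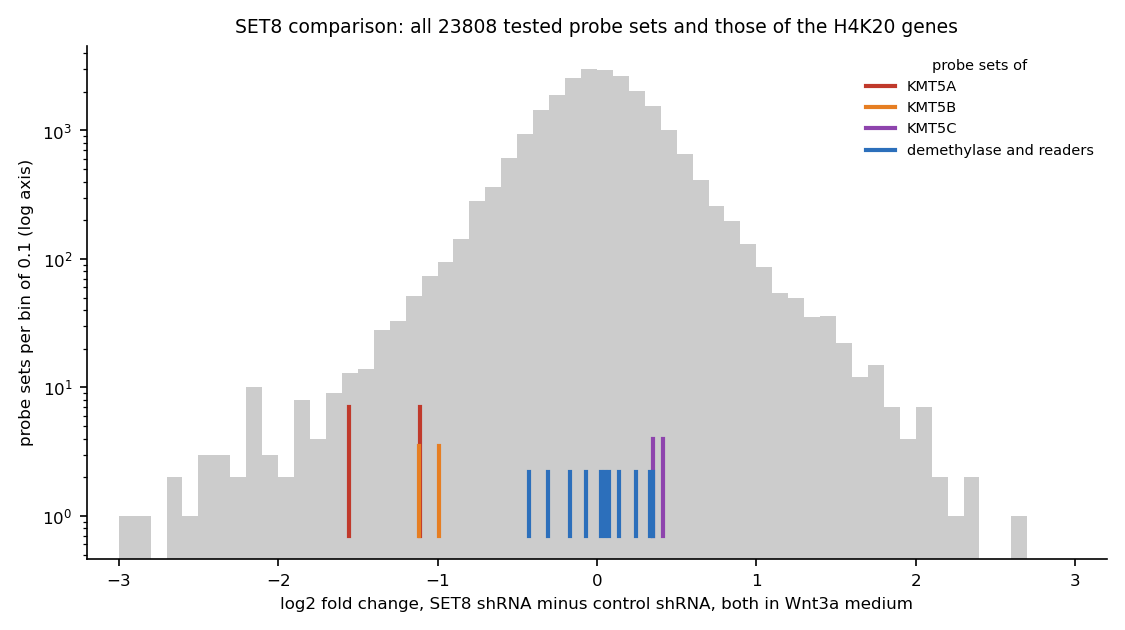
Counts of the 23808 tested probe sets (y axis, log scale) by their log2 fold change, SET8 shRNA minus control shRNA in Wnt3a medium (x axis). Coloured lines mark the 17 probe sets of the H4K20 genes, and their height has no meaning. The tested KMT5A and KMT5B probe sets lie in the lower tail, and the other tested H4K20 probe sets in the centre. The untested KMT5B probe sets are not shown.

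PHF8, the demethylase, had overlapping groups on all 3 of its probe sets on chromosome X (hg18). NM_015107 (53979837 to 54087036) read 12.24 and 12.52 with SET8 shRNA, against 12.38 and 12.53 with control shRNA in Wnt3a medium. Its change was -0.07 ± 0.23 (SE; 95% interval -0.61 to 0.47; limma, adjusted p = 0.997). AB029034 (53980876 to 54088121) read 10.69 and 11.52 with SET8 shRNA, against 11.53 and 10.40 with control shRNA in Wnt3a medium. Its replicates were farther apart in each of these groups than its change of 0.14 ± 0.51 (SE; 95% interval -1.05 to 1.33). BC042108 (53986414 to 54086319) read 7.44 and 7.69 with SET8 shRNA, against 8.20 and 7.55 with control shRNA in Wnt3a medium. It was above the array median in 3 arrays and its fold change was -0.31 ± 0.28 (SE). These 3 all carried control shRNA, so it passed the filter only through control shRNA arrays where it was high.

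L3MBTL1, the reader that compacts chromatin at mono- and dimethylated H4K20, was dim in all arrays. Its probe sets, all within 41576487 to 41603949 of chromosome 20 (hg18), spanned 6.57 to 7.27 (NM_032107), 5.70 to 7.05 (NM_015478) and 5.24 to 6.20 (BC039820) in all 6 arrays, below the array medians and above the random control set, and none was tested. Their changes without the filter were 0.30, -0.25 and -0.20.

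L3MBTL2, a malignant brain tumour domain protein of a Polycomb complex, had 4 probe sets within 39931258 to 39957222 of chromosome 22 (hg18), all above the median in all 6 arrays. NM_031488 read 10.95 and 10.67 with SET8 shRNA, against 10.95 and 10.52 with control shRNA in Wnt3a medium, with an overlap. Its change was 0.08 (95% interval -0.53 to 0.68). NM_001003689 read 10.53 and 10.69 with SET8 shRNA, against 10.01 and 10.51 with control shRNA in Wnt3a medium. AL136564 read 10.14 and 9.93 with SET8 shRNA, against 9.68 and 9.91 with control shRNA in Wnt3a medium. In both, the SET8 shRNA arrays were the higher, without overlap, at fold changes of 0.35 ± 0.27 and 0.24 ± 0.24 (SE; limma, adjusted p = 0.921 and 0.944). Set against control shRNA in control medium, the SET8 shRNA arrays stood at -0.13 on NM_001003689 and -0.05 on AL136564. BC017191 read 10.41 and 10.54 with SET8 shRNA, against 10.24 and 10.62 with control shRNA in Wnt3a medium, which overlapped, with a fold change of 0.05.

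L3MBTL3, a related malignant brain tumour domain protein, read 7.99 and 8.37 on NM_001007102 (chromosome 6, hg18, 130381426 to 130504278) with SET8 shRNA, against 8.53 and 8.68 with control shRNA in Wnt3a medium and 8.66 and 8.51 in control medium. The 2 SET8 shRNA arrays were below all 4 others. The change was -0.43 ± 0.24 (SE; 95% interval -1.001 to 0.15; limma, adjusted p = 0.834). Both SET8 shRNA arrays lay below all 4 control shRNA arrays for 5 of 17 probe sets, where 10.9% of all did: the 2 of KMT5A, the 2 tested of KMT5B and this one. Of these, KMT5B AF151843 passed the filter only through the control shRNA arrays, where it was high. The SET8 shRNA arrays lay above all 4 for 0 of 17, where 12.1% of all did. BC060845 (130381426 to 130503318) read 7.36 and 8.03 with SET8 shRNA, against 7.95 and 6.78 with control shRNA in Wnt3a medium. The groups overlapped, and it was above the median in 2 arrays only. Its change was 0.33 ± 0.55 (SE).

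TP53BP1, a double-strand break repair protein, read 11.23 and 11.07 on BX537418 (chromosome 15, hg18, 41486705 to 41572645) with SET8 shRNA, against 11.29 and 11.34 with control shRNA in Wnt3a medium. The SET8 shRNA arrays were lower, with no overlap, but 1 of the control medium arrays, at 10.96, was lower still. The change was -0.17 ± 0.24 (SE; 95% interval -0.72 to 0.38). NM_005657 (41486698 to 41590028) overlapped, at 11.02 and 11.10 with SET8 shRNA, against 11.17 and 10.89 with control shRNA in Wnt3a medium, with a fold change of 0.03 (95% interval -0.53 to 0.58). Neither interval reaches the change of KMT5A AY064546, nor does that of any tested KMT5C, PHF8, L3MBTL2 or L3MBTL3 probe set. Both TP53BP1 intervals overlap that of KMT5A NM_020382, at -1.78 to -0.45. The difference between TP53BP1 and KMT5A was not tested.

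Averaging the tested probe sets of each gene gave KMT5A -1.33 ± 0.21 (SE; limma, adjusted p = 0.113) and KMT5B -1.05 ± 0.31 (SE; 95% interval -1.80 to -0.30; adjusted p = 0.375). The KMT5B mean includes AF151843, which passed the filter only through the control shRNA arrays, where it was high. It leaves out the 2 untested KMT5B probe sets, at 0.18 and -0.06 without the filter. For KMT5C averaging gave 0.38 ± 0.19 (SE; 95% interval -0.06 to 0.83), for L3MBTL2 0.18, for L3MBTL3 -0.05, for PHF8 -0.08 and for TP53BP1 -0.07. The PHF8 mean includes BC042108, which also passed the filter only through control shRNA arrays where it was high. The difference between KMT5B and KMT5C was not tested.

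Between Wnt3a medium and control medium, in cells with control shRNA, changes of the H4K20 probe sets spanned -0.54 to 0.36. An adjusted p under 0.05 was reached by 0 of the 17 in limma, where 0.0% of all reached it. An unadjusted p under 0.05 was also reached by 0 of 17, where 2.14% of all reached it, 0.529% as lower and 1.61% as higher. The 17 had 13 lower and 4 higher values, with a median of -0.15, while 47.0% of all probe sets were lower and the median over all was 0.02. The 13 are the tested probe sets of KMT5A, KMT5B, KMT5C, PHF8 and L3MBTL2, so several measure the same gene and are not independent. The fold change of KMT5A was -0.02 ± 0.34 (SE; 95% interval -0.81 to 0.77) on AY064546 and -0.09 on NM_020382. That of KMT5B was -0.37 ± 0.34 on NM_016028 and -0.54 ± 0.31 on AF151843 (SE). KMT5C read 11.88 and 11.20 in Wnt3a medium, against 11.88 and 11.56 in control medium, on NM_032701 and 8.83 and 9.48 in Wnt3a medium, against 9.43 and 9.83 in control medium, on AF289582, with fold changes of -0.18 and -0.47. Both probe sets overlapped between the media. PHF8 had fold changes of -0.05, -0.01 and -0.32 on NM_015107, AB029034 and BC042108. The tested fibroblast markers went different ways between the media, with fold changes of 0.28 for COL1A1, -0.85 for COL3A1 and -2.29 for COL1A2 (limma, adjusted p = 1.0 each). COL3A1 and COL1A2 lay above the array median only in control medium. They passed the filter only through the group where they were high. The summed signal of all 5 fibroblast markers was 12.57 to 12.77 in Wnt3a medium, against 12.47 to 12.55 in control medium. COL1A1 alone read 12.70 and 12.48 in Wnt3a medium, against 12.35 and 12.27 in control medium. Of the untested markers, all 5 probe sets of DCN had a lower mean in Wnt3a medium, at 5.09 to 5.79, against 6.85 to 7.49 in control medium. Both of LUM had a higher one, at 6.09 and 5.61 in Wnt3a medium, against 5.88 and 5.09 in control medium. The part of the fibroblast markers in the values of the H4K20 genes was not tested.

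L3MBTL2 had the Wnt3a arrays below the control medium arrays, without overlap, on 3 of its 4 probe sets. NM_001003689 read 10.01 and 10.51 in Wnt3a medium, against 10.55 and 10.94 in control medium. BC017191 read 10.24 and 10.62 in Wnt3a medium, against 10.62 and 10.73 in control medium, so that the nearest arrays were equal to 2 decimals. AL136564 read 9.68 and 9.91 in Wnt3a medium, against 10.21 and 9.96 in control medium. These are 3 of the 17, where 9.15% of all probe sets were separated in this direction, and 1 of 17, TP53BP1 BX537418, was separated upward, where 12.0% were. The changes were -0.49 ± 0.27, -0.25 ± 0.24 and -0.29 ± 0.24 (SE), none past the threshold. The SET8 comparison uses the same control shRNA arrays in Wnt3a medium, with the opposite sign. The L3MBTL2 values of these comparisons are therefore not independent. The fold changes of L3MBTL3 were 0.02 on NM_001007102 and 0.36 on BC060845, and those of TP53BP1 0.20 on BX537418 and 0.10 on NM_005657.

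The 2 control shRNA groups deviated together by replicate number, as given below, so the same-numbered arrays were also set against each other. Wnt3a minus control medium was negative at both numbers for 8 of 17 probe sets, where 26.2% of all were, and positive at both for 3 of 17, where 31.6% were. The 8 are the tested probe sets of KMT5B, KMT5C and L3MBTL2, so several measure the same gene and are not independent. The difference was -0.55 and -0.53 for KMT5B AF151843 and -0.54 and -0.43 for L3MBTL2 NM_001003689. With a term for replicate number in the control shRNA arrays, chosen after seeing the data, 14 of all probe sets passed and none of the 17 did (limma, adjusted p = 0.663 for AF151843 and 0.688 for NM_001003689).

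Set against control shRNA with control medium, cells with SET8 shRNA and Wnt3a medium again had the most negative fold changes of the 17 at KMT5A and KMT5B. No H4K20 probe set was among the 12 of all tested that passed (0.0504%), and 4 of 17 had an unadjusted p under 0.05, all lower. At that level 10.6% of all passed, 4.07% as lower and 6.48% as higher. The change was -1.58 and -1.20 for KMT5A AY064546 and NM_020382 (limma, adjusted p = 0.14 and 0.166). For KMT5B it was -1.37 and -1.65 for NM_016028 and AF151843 (adjusted p = 0.186 and 0.108). With only the 4 arrays of this comparison in the fit, KMT5A AY064546 and KMT5B AF151843 passed (limma, adjusted p = 0.0498 and 0.0376), of which AF151843 was tested only through the control shRNA arrays, where it was high. In the 2 models chosen after seeing the data, all 4 of these probe sets passed. The adjusted p from limma was 0.0181, 0.0462, 0.022 and 0.0157 with the replicate numbers crossed and 0.0101, 0.0257, 0.00853 and 0.00363 with a term for the control shRNA arrays, for AY064546, NM_020382, NM_016028 and AF151843. This comparison shares arrays with both of the others, so its values are not independent of them.

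Replicate 1 minus replicate 2 had the same sign in both media for 11 of the 17 probe sets (64.7%), against 78.2% of all, and was over 2-fold the same way in both for PHF8 AB029034 and L3MBTL3 BC060845. Across all tested probe sets, the replicate differences of the 2 groups with control shRNA correlated at 0.75, and those of either with the SET8 shRNA group at -0.29.

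**Figure D4:**
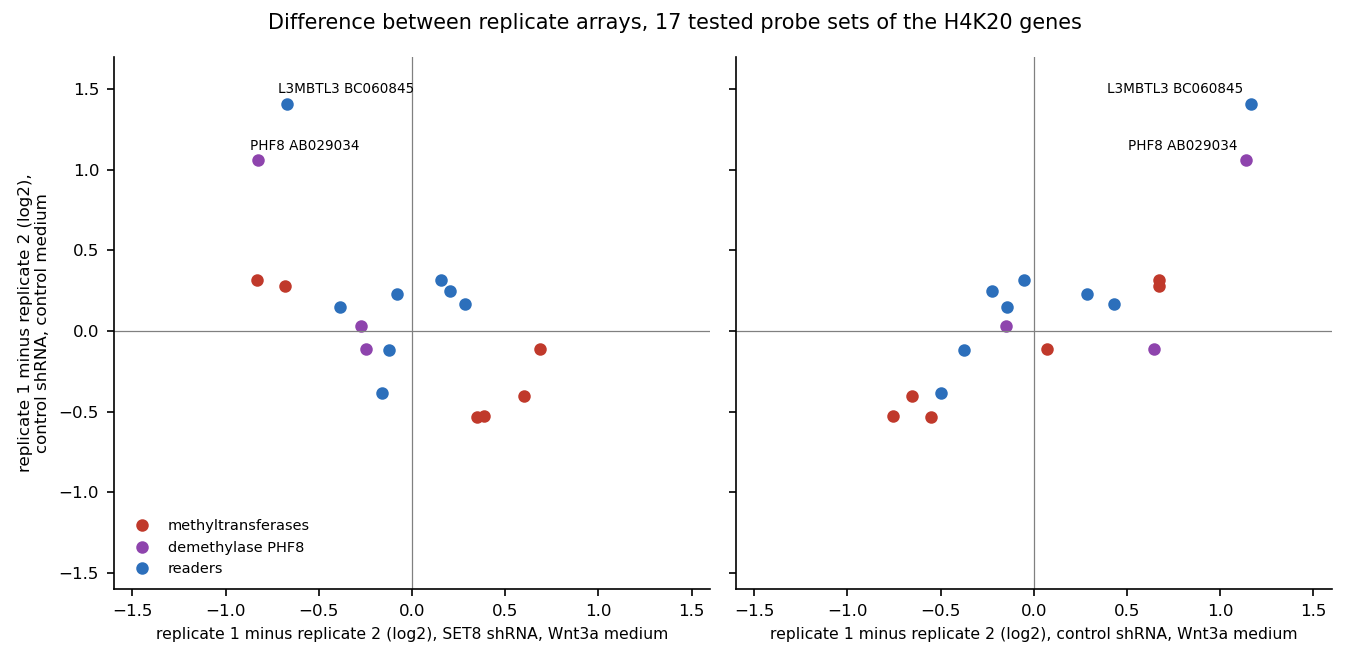
Replicate 1 minus replicate 2 in log2 intensity for the 17 tested probe sets, SET8 shRNA or control shRNA in Wnt3a medium (x axes) against control shRNA in control medium (y axis). Points are probe sets, coloured by role. In the 2 control shRNA groups AB029034 of PHF8 and BC060845 of L3MBTL3 lie over 1 log2 unit from 0 on both axes.

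Genes whose values followed KMT5A AY064546 most closely over the 6 arrays were YWHAQ, SGPL1, C11orf71, BASP1 and SLC30A1, with Pearson correlations of 0.991, 0.991, 0.991, 0.989 and 0.987. These are the 5 highest of 13064 genes compared, over only 6 arrays in 3 groups. YWHAQ is a 14-3-3 adaptor protein, SGPL1 the sphingosine phosphate lyase and SLC30A1 a zinc exporter. The changes of the 5 with SET8 shRNA were -0.78, -0.62, -0.59, -0.46 and -0.91 in that order (limma, adjusted p = 0.371 to 0.763). The 5 were picked for following a probe set that was lower in those arrays, so the direction of these changes follows from the choice.

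Partner genes of the H4K20 enzymes and readers were followed in 7 lists of 63 genes in all, of which 53 were tested. With SET8 shRNA none of the 53 passed the threshold, 21 were lower and 32 higher, and the median was 0.06, against 0.01 over all probe sets. With Wnt3a medium none passed, 26 were lower and 27 higher, and the median was 0.01. The other H4K20 readers (10 of 13 tested) had a median of -0.01 with SET8 shRNA, and ORC1, a subunit of the origin recognition complex, stood at 0.57 and TONSL, a reader of unmethylated H4K20 on new chromatin, at -0.39. PHF2 of the PHF8 family stood at -0.12. Heterochromatin partners of KMT5B and KMT5C (7 of 8 tested) had a median of -0.03, with SUV39H2, a histone H3 lysine methyltransferase, at -0.29 and CBX1, a heterochromatin protein, at 0.20.

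The genes of SET8 protein turnover were all tested (11 of 11), with a median of 0.07 and CUL4A, a ubiquitin ligase scaffold, at 0.38 and SKP2, an F-box protein, at 0.36. In the Polycomb complex of L3MBTL2 (11 of 12 tested) the median was 0.09, with TFDP1, a dimerisation partner of E2F, at 0.70 and RYBP, a Polycomb subunit, at -0.47. Among L3MBTL3 partners (4 of 4 tested) the median was 0.11, with RBPJ, the Notch pathway transcription factor, at -0.52 and SAMD1 at 0.24. Among TP53BP1 partners (9 of 13 tested) the median was 0.06 and MDC1, a scaffold at DNA breaks, stood at 0.53.

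SHLD2, a subunit of the shieldin complex that acts with TP53BP1, had the largest fold change of these partner genes with SET8 shRNA and did not pass the threshold. NM_019054 read 8.24 and 8.58 with SET8 shRNA, against 6.43 and 6.71 with control shRNA in Wnt3a medium and 7.04 and 6.67 in control medium. The 2 SET8 shRNA arrays were above all 4 others. The change was 1.84 ± 0.26 (SE; limma, adjusted p = 0.104). The gene lay above the array median only in the SET8 shRNA arrays, so it passed the filter only through the group where it was high. The second probe set, BC051863, had a fold change of 1.85, and 2 tested probe sets of SHLD2P3, which RefSeq lists as a pseudogene of SHLD2, had 1.41 and 1.62. BC051863 and the one with 1.41, XM_495814, also passed the filter only through the SET8 shRNA arrays, where they were high. On the one with 1.62, XM_927259, a control medium array at 8.90 lay above both SET8 shRNA arrays, at 8.73 and 8.49. An untested SHLD2P3 probe set, XM_931975, had 0.85 without the filter. Which copy gave the signal was not tested.

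With Wnt3a medium the genes named by the same rule were NCAPD3 (0.28) and PHF20 (-0.18) among readers, PHF2 (0.11) of the PHF8 family, SUV39H2 (0.33) and SUV39H1 (-0.24) among heterochromatin partners, and SKP2 (0.50) and CDKN1A (-0.28) among turnover genes. They were RING1 (-0.56) and HDAC1 (0.41) in the L3MBTL2 complex, SAMD1 (0.48) and KDM1A (0.11) with L3MBTL3, and ATM (-0.73) and SHLD2 (-0.29) with TP53BP1. Against control shRNA with control medium, SHLD2 (1.55), SKP2 (0.86) and SAMD1 (0.73) had an unadjusted p under 0.05, and none passed after adjustment. These are 3 of the 53 tested (5.66%), against 10.6% of all probe sets. Of them, SHLD2 passed the filter only through the SET8 shRNA arrays, where it was high.

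**Figure D5:**
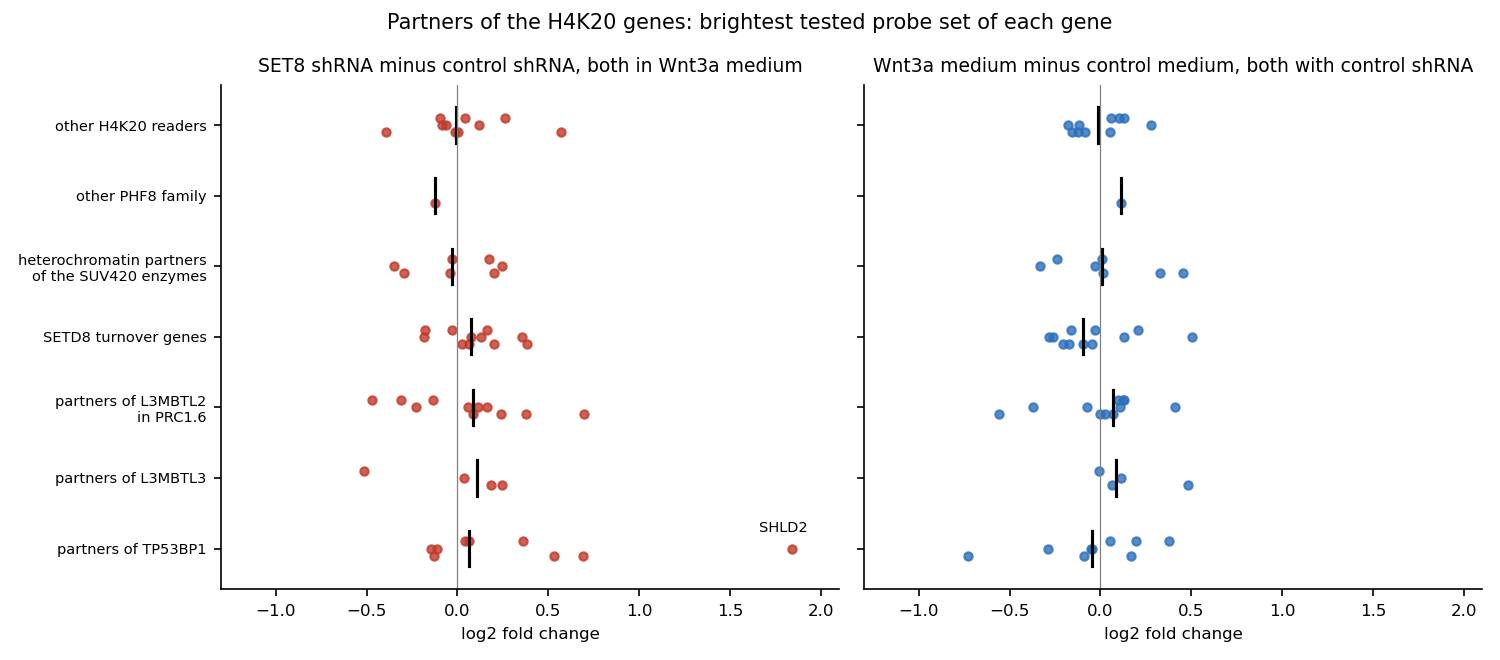
Log2 fold change (x axis) of the brightest tested probe set of each partner gene, by list (y axis), for SET8 shRNA minus control shRNA, both in Wnt3a medium (left), and Wnt3a minus control medium, both with control shRNA (right). Points are genes and black bars list medians. SHLD2 stands at 1.84 with SET8 shRNA, and it passed the filter only through the SET8 shRNA arrays, where it was high.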

How the data were processed

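Total RNA from HEK293 cells was labelled with Cy3 and hybridised to single-colour NimbleGen arrays. For each array the authors deposited a linear intensity for every probe set, made with RMA per the submitters' processing notes, and the settings of RMA are not given in the sources used here. Another deposited column, a score whose header names it a standard error, was left out because its scale is unknown. The deposited value table repeats the intensity values of the per-array files (largest difference 0). Of the 45033 probe sets 45031 hold 3 probes, and coordinates are hg18 per the file headers. Symbols were updated through the Entrez ID with a RefSeq table, which matched 38916 probe sets (86.4%).

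Log2 was taken of the intensity without an offset. A probe set was tested if it exceeded the array's median on 2 or more of the 6 arrays (23808 tested, 21225 left out). A 3-group linear model was fitted to the 6 arrays together (limma 3.58.1, R 4.3.3), with Benjamini-Hochberg adjustment and a threshold of 0.05. The fit was tested on simulated data. With 2 arrays against 2, an exact permutation test cannot go below 0.333, so none was run on single values. The number of arrays limits the precision. The p-values rest on the spread between replicate arrays, which may be technical only.

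The members and partner lists were chosen with earlier results of these data known. Named are all members and, per partner list and comparison, the genes that passed or, where none did, the pair with the lowest p. In the combined comparison only those with an unadjusted p under 0.05 are given. The 5 genes most like KMT5A were ranked by Pearson correlation with its probe set AY064546 alone. Promoter sequences are from RefSeq on GRCh38.p14, whose coordinates are not those of the probe sets. Alternatives covered the filter, the samples in the fit, the spread estimate, normalisation, the log offset, a replicate block, array weights, gene means and leaving out each array. A replicate block with crossed numbers and a control shRNA array term were chosen after seeing the data.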

Additional observations from a re-analysis of the deposited data

How the results depend on the processing

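The number of probe sets called was 0 for SET8 shRNA against control shRNA, and became 28 with only the 4 arrays of the comparison and 15 with an intensity trend; leaving out each array gave 0 to 28, the 28 without either control medium array. For Wnt3a medium it was 0, and 2 under each of a 60th percentile filter, the trend and an offset of 50, and 0 with each array left out. For SET8 shRNA with Wnt3a medium against control medium it was 12, and 0 without the filter, 52 at the 60th percentile, 230 with only 4 arrays, 31 with the trend, 2 with a robust spread, 6 with quantile normalisation, 56 with an offset of 50 and 87 with array weights, and 0 to 230 with an array left out. The cause was not tested.

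With the replicate number as a block, the combined comparison had 0 calls. KMT5A AY064546 was then -1.56 in the SET8 comparison and -1.58 in the combined one (limma, adjusted p = 0.331 and 0.202). The labels do not say that a number marks a shared batch, and replicate differences correlated at 0.75 between the 2 control shRNA groups and at -0.29 between each and the SET8 shRNA group, so the numbers were not taken to pair all 3 groups, though the 4 control shRNA arrays deviated together. Crossing the numbers of the SET8 shRNA arrays, chosen after seeing the data, gave 182, 3 and 792 calls for the SET8, Wnt3a and combined comparisons. The control shRNA array term gave 535, 14 and 1503. In the SET8 comparison KMT5A AY064546 was past the threshold at -1.56 in both. So were KMT5B AF151843 with the array term (limma, adjusted p = 0.0289) and SHLD2 NM_019054 with both (0.0286 and 0.00715). AF151843 entered the test only through the control shRNA arrays, where it was high. SHLD2 entered it only through the SET8 shRNA arrays, where it was high. In the combined comparison SHLD2 also passed with only 4 arrays (0.0397) and in both added models (0.0236 and 0.00724), and SKP2 with the array term (0.0365).

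Under the planned settings that kept all arrays of the comparison, KMT5A AY064546 was -1.58 to -1.48, with adjusted p of 0.184 to 0.577, and with an array left out -1.90 to -1.22. L3MBTL3 NM_001007102 with Wnt3a turned to -0.0295 with quantile normalisation and -0.0497 with centring. Leaving out 1 array turned the sign of 8 of 30 values with SET8 shRNA and 13 of 30 with Wnt3a, and moved 15 and 16 others by over 1.5 times. With SET8 shRNA the H4K20 probe sets among these 15 were KMT5B NM_016028 (-1.37 to -0.61), KMT5C AF289582 (0.028 to 0.68), L3MBTL2 NM_001003689 (0.10 to 0.60) and AL136564 (0.13 to 0.36), L3MBTL3 NM_001007102 (-0.62 to -0.24) and TP53BP1 BX537418 (-0.25 to -0.094). The widest among partners were SKP2 (0.0097 to 0.71) and ORC1 (0.19 to 0.96). Where the sign turned with SET8 shRNA the ranges were -0.0037 to 0.83 for KMT5C NM_032701, -0.14 to 0.24 for L3MBTL2 BC017191, -0.14 to 0.29 for NM_031488, -0.25 to 0.91 for L3MBTL3 BC060845, -0.43 to 0.71 for PHF8 AB029034, -0.63 to 0.017 for BC042108, -0.21 to 0.066 for NM_015107 and -0.12 to 0.17 for TP53BP1 NM_005657. With Wnt3a they were -0.066 to 0.29 for KDM1A, -0.35 to 0.32 for KMT5A AY064546, -0.75 to 0.002 for KMT5B NM_016028, -0.52 to 0.15 for KMT5C NM_032701, -0.37 to 0.063 for L3MBTL2 NM_031488, -0.35 to 1.06 for L3MBTL3 BC060845, -0.055 to 0.095 for NM_001007102, -0.65 to 0.29 for PHF20, -0.58 to 0.56 for PHF8 AB029034, -0.65 to 0.0013 for BC042108, -0.13 to 0.022 for NM_015107, -0.54 to 0.053 for SUV39H1 and -0.044 to 0.24 for TP53BP1 NM_005657.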
